A study of Mus musculus with 6 samples.

Results

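Cells make cholesterol from acetyl units through the mevalonate pathway, which leads to squalene, and then through a series of sterol intermediates. Because plasma lipoprotein cholesterol hardly enters the brain, neurons and glia depend on local synthesis, on lipoprotein exchange between cells through ATP-binding cassette transporters and LDL receptor family members, and on hydroxylation of surplus sterol to oxysterols. Synthesis is governed by the transcription factor SREBP2, which SCAP escorts and INSIG retains, and efflux by liver X receptors (LXR), which oxysterols activate. Here 28 genes of these steps were taken by their mouse symbols from the 47728 genes of a count table of mouse cerebral cortex, and all 28 were measured and passed the filter on low counts.

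Cortex RNA was compared between FAD5x mice (3 libraries), an Alzheimer's disease model whose human transgenes are known to be driven in neurons by the Thy1 promoter, and wild-type C57BL/6 mice (3 libraries, Control), and the labels give no age, sex or allele. Levels are CPM (counts per library total, as a rate), scaled by the trimmed mean of M values (TMM), and each difference is the log2 ratio of FAD5x to Control, given with its standard error (SE). A gene was called at an adjusted p below 0.05, by edgeR's quasi-likelihood test with Benjamini-Hochberg adjustment over 17074 genes. Whether the libraries came from separate animals is not stated, so the p-values measure only how these libraries vary, and that variation may be technical.

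Values listed for a group follow replicates 1, 2 and 3 in that order. Library totals ran from 17363946 to 24137936 counts. By sex-linked genes Control replicate 1 differed from the rest: Xist had 3 counts there and at least 10346 elsewhere, and Y-linked genes had 3124 counts there and at most 9 in the other 5 libraries. The labels give related names to the libraries of FAD5x replicates 1 and 2. Neuron markers were present in each library. Over 10 genes they summed to 8279, 13043 and 7788 CPM in the FAD5x libraries, against 8090, 9819 and 9728 CPM in Control. None of the markers of the 6 cell types used here was at 0 in all libraries. Microglia markers summed to 467 to 1000.3 CPM in the FAD5x libraries, against 293 to 450.4 CPM in the Control libraries, with 1 of 10 genes (C1qa) called higher by edgeR and 5 by DESeq2. Of these 10 genes 8 were higher before adjustment at p under 0.05, against 11.2% of all tested genes, and all 10 had a log2 fold change above 0, with a median of 1.04. Oligodendrocyte markers summed to 4097 to 7927 CPM and 2972 to 4396 CPM, with Mobp and Gjb1 of 12 called higher by edgeR and 4 by DESeq2. Before adjustment 5 of the 12 were higher at p under 0.05, and 11 had a log2 fold change above 0, with a median of 0.44. Across all tested genes edgeR called 1.76% higher and 1.39% lower. Endothelial markers summed to 186 to 259 CPM and 225 to 296 CPM, with Kdr of 8 called lower by edgeR and 2 by DESeq2. Before adjustment 4 of the 8 were lower at p under 0.05. The 9 mural and meningeal markers summed to 114 to 157 CPM and 235 to 467 CPM, with 0 called by edgeR. Of these 9 genes 6 were lower before adjustment at p under 0.05, limma-voom called 0 and DESeq2 called 5 lower. The summed astrocyte markers overlapped between the groups, at 4349 to 7170 CPM and 4912 to 6802 CPM, which does not show how single genes differed. Of these 10 genes 0 were called by edgeR, limma-voom or DESeq2. Before adjustment 1 was higher and 0 were lower at p under 0.05. Their log2 fold changes ran from -0.60 to 2.41, with a median of -0.23, 3 above 0 and 7 below.

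The promoters of the genes that the comparison turns on are shown first, so that the binding motifs known for sterol regulation can be read beside the expression values. Sequences are RefSeq windows of 300 bases, 250 before the start site and 50 after it, in build GRCm38.p6, and 24 of the 28 genes had one. Matches were sought on both strands for CACCCCAC and TCACNCCAC, forms of the sterol regulatory element bound by SREBP2, for CCAAT, the box bound by NF-Y, and for the LXR element, a direct repeat of AGGTCA with 4 bases between the copies. The first motif overlaps the second where both match. Capitals mark matches, and ATTGG is CCAAT on the opposite strand. Ch25h (chr19:34475099-34475398, minus strand) and Pmvk (chr3:89454291-89454590, plus strand) are the members called higher. Nsdhl (chrX:72918271-72918570, plus strand) and Nr1h2 (chr7:44553916-44554215, minus strand) are the next by p with a window. For Hmgcs1 (chr13:119690169-119690268, plus strand) and Acat2 (chr17:12960853-12960952, minus strand) the 100 bases around the CACCCCAC match are given, since these are the 2 members that hold it, and both were chosen after the matches were seen.
Ch25h: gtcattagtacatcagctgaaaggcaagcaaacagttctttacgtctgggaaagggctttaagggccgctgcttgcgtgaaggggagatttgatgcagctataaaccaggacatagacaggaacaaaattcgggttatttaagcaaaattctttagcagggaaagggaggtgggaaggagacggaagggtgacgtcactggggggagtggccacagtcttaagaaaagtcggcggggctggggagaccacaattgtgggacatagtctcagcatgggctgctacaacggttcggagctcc
Pmvk: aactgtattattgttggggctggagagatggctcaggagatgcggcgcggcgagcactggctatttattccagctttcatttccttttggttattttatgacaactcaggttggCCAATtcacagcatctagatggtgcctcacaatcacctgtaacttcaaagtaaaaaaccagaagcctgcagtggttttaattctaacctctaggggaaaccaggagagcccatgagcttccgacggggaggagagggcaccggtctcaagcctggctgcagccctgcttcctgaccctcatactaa
Nsdhl: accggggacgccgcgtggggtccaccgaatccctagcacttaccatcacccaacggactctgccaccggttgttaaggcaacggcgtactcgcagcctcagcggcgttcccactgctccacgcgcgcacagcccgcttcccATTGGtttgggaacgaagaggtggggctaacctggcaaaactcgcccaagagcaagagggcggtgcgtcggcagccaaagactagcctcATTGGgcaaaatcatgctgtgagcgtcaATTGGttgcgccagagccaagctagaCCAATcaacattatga
Nr1h2: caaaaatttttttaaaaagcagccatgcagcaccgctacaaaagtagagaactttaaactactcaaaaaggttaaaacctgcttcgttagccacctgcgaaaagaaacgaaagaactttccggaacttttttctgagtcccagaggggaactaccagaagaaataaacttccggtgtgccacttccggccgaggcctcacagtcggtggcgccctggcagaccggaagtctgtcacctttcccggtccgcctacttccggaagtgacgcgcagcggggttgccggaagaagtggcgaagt
Hmgcs1: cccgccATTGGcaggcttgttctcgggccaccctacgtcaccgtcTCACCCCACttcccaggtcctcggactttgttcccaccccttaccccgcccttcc
Acat2: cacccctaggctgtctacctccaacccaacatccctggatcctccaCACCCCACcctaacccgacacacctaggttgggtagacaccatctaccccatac

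The sterol element CACCCCAC was in the windows of 2 of 24 genes, Hmgcs1 and Acat2. By window this was 2 of 28, against 2.87% of 32851 mouse promoter windows. The form TCACNCCAC was in 1 of 28 windows, that of Hmgcs1, 137 bases before the start, against 1.24% of all windows. CCAAT was in the windows of 18 of 24 genes, or 18 of 28 windows since some genes have several, against 37.4% of all windows. Nsdhl has 4 CCAAT matches, at 109 and 20 bases before the start and 8 and 34 bases after it, and Pmvk has 1, at 136 bases before it. Another RefSeq window of Pmvk, and those of Ch25h and Nr1h2, held none of these motifs. The LXR repeat, sought only as an exact match, was in 0 of 28 member windows and in 0.0152% of all windows. A match this rare could hardly be met in 28 windows, and inexact forms were not sought. Its absence therefore does not show that the members lack LXR elements. Fdft1, Abcg1, Fdps and Sqle are named here without a sequence.

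In FAD5x cortex 2 of the 28 genes were called higher, Ch25h and Pmvk, and 0 were called lower. Across all tested genes 3.15% were called, 1.76% higher and 1.39% lower. At an unadjusted p below 0.05 the members higher in FAD5x were 6, Ch25h, Pmvk, Fdft1, Abcg1, Nsdhl and Nr1h2, against 11.2% of all tested genes. At that threshold 0 were lower, against 10.1%. By limma-voom 0 members were called, and by DESeq2 4 were called higher, Ch25h, Pmvk, Fdft1 and Abcg1. Over all 17074 tested genes limma-voom called 247 higher and DESeq2 763 higher. The FAD5x and Control libraries did not overlap for 9 members, 8 of them higher in FAD5x, against 27.4% of all tested genes. Of the 4673 tested genes without overlap 2415 were higher in FAD5x and 2258 lower. Over the members the log2 fold change had a median of 0.07, with 17 above 0 and 11 below, and over all tested genes one of 0.02.

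**Figure D1:**
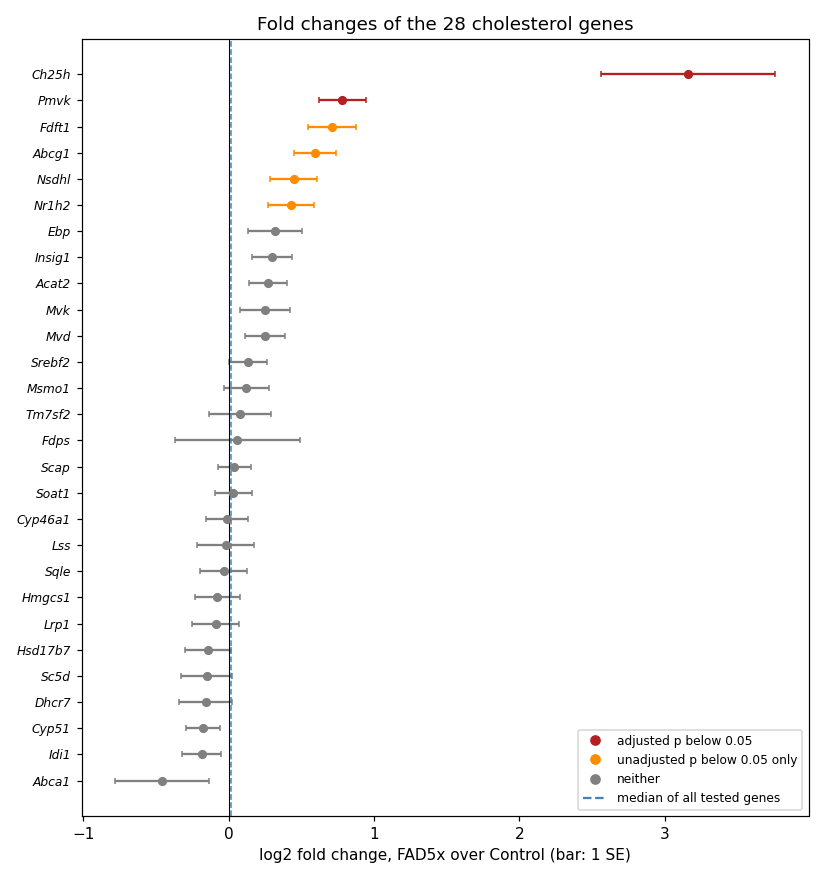
Points show the log2 fold change of each of the 28 genes, FAD5x over Control, with bars of 1 SE (n = 3 per group), ordered by size. Ch25h stands far to the right at 3.16, Pmvk follows at 0.78, Fdft1 and Abcg1 come next at 0.71 and 0.59, and the dashed line is the median of all tested genes, 0.02.

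Ch25h (ENSMUSG00000050370) encodes cholesterol 25-hydroxylase, which makes the oxysterol 25-hydroxycholesterol and is known as a gene of activated macrophages and microglia. It was the lowest member in Control and had the largest fold change of the 28. Its counts were 46, 114 and 52 in the FAD5x libraries, against 4, 4 and 12 in the Control libraries. Scaled, it stood at 1.90, 5.52 and 2.72 CPM in the FAD5x libraries, against 0.220, 0.225 and 0.671 CPM in the Control libraries. Every FAD5x library was above every Control library. The mean was 0.372 ± 0.259 CPM in Control and 3.38 ± 1.90 CPM in FAD5x (SD, n = 3). Ch25h rose 8.94-fold (log2 3.16 ± 0.60 SE; edgeR, adjusted p = 0.0314).

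The order of the FAD5x libraries for Ch25h was not that of the microglia markers. FAD5x replicate 2 had the highest Ch25h level and the lowest summed microglia level of the FAD5x libraries, 467 CPM, against 450.4 CPM in Control replicate 2. All 10 microglia markers had a fold change in the direction of Ch25h, and the part of microglia in its difference was not tested. Microglial C1qa, a chain of complement C1q, was at 139, 73.3 and 91.3 CPM in FAD5x replicates 1, 2 and 3. The endothelial sum, 259 CPM in FAD5x replicate 2, lay within the Control range, and the mural and meningeal sum was lowest in that library, at 114 CPM. The neuron sum was highest in that library, at 13043 CPM. In bulk tissue a change in the number of cells of a type and a change in RNA per cell cannot be told apart. Ch25h shares 159 bases of its exons, 11.5%, with Gm26902, a non-coding gene on the opposite strand, and the sources used here do not give whether counting used strand. Gm26902 had 29, 32 and 53 counts in the FAD5x libraries, against 27, 21 and 8 in the Control libraries. These counts do not overlap, while the scaled levels do, at 1.20, 1.55 and 2.77 CPM and 1.49, 1.18 and 0.447 CPM (log2 0.81 ± 0.52, edgeR adjusted p = 0.419). Among the settings that ended the Ch25h call were those without Control replicate 1, 2 or 3 (adjusted p = 0.139, 0.130 and 0.0505) and limma-voom (0.0597), while the fold stayed between 6.15 and 14.8 when single libraries were left out.

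The other members of sterol storage and turnover had differences near 0 that did not pass the test. Cyp46a1, the neuronal 24-hydroxylase through which the brain exports cholesterol, was at 184, 202 and 169 CPM in the FAD5x libraries, against 161, 194 and 204 CPM in the Control libraries. Its groups overlapped (log2 -0.01 ± 0.14, edgeR adjusted p = 0.980). Soat1, the acyltransferase that stores cholesterol as esters, ranged from 35.1 to 42.8 CPM in FAD5x and from 35.2 to 38.8 CPM in Control (log2 0.03 ± 0.13, adjusted p = 0.915). Per kilobase of exon, the mean Control level of Cyp46a1 was 56.7 CPM and that of Soat1 3.83 CPM, against 0.268 CPM for Ch25h. Ch25h therefore remained the lowest of these hydroxylase and storage genes per length in FAD5x as well, at 2.44 CPM per kilobase.

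**Figure D2:**
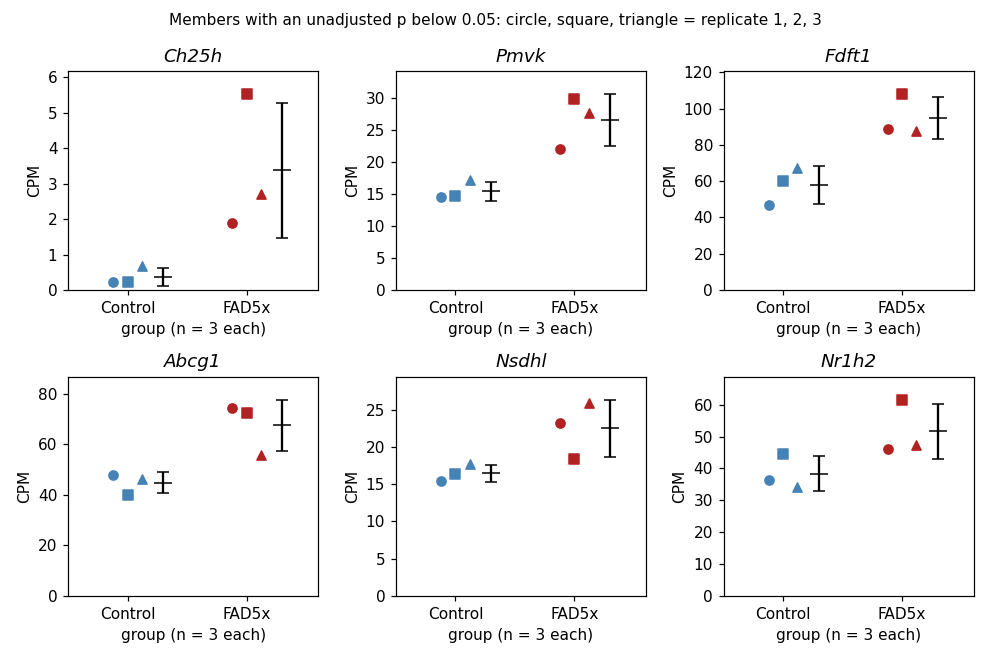
Each panel shows the CPM of 1 gene in the 3 Control and 3 FAD5x libraries, with the mean and SD as a bar beside them, for the 6 members with an unadjusted p below 0.05. In all 6 panels the lowest FAD5x library is above the highest Control library, and Nsdhl and Nr1h2 are the closest to overlap.

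Among the enzymes of the mevalonate arm, which builds the isoprenoid units, Pmvk was called and the others were not. Pmvk (ENSMUSG00000027952), phosphomevalonate kinase, was at 22.0, 29.9 and 27.8 CPM in the FAD5x libraries, against 14.5, 14.7 and 17.2 CPM in the Control libraries. No FAD5x library fell into the Control range. Pmvk rose 1.72-fold, from 15.5 ± 1.48 to 26.6 ± 4.08 CPM (SD, n = 3; log2 0.78 ± 0.16, edgeR adjusted p = 0.0400). No near-identical copy or overlapping exon was found for it. Among the settings that ended its call were those without FAD5x replicate 3 (adjusted p = 0.0714), without Control replicate 1, 2 or 3 (0.175, 0.158 and 0.0931), limma-voom (0.0533), library totals only (0.0528) and removal of length and GC trends (0.0981, log2 0.57).

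The enzymes on either side of Pmvk had smaller differences. Mvk, mevalonate kinase, which acts just before it, was at 22.8, 15.9 and 21.3 CPM in the FAD5x libraries, against 16.2, 18.9 and 15.4 CPM in the Control libraries, with overlap (log2 0.25 ± 0.17, edgeR adjusted p = 0.460). Mvd, the decarboxylase that acts just after it, was at 19.0, 16.7 and 18.2 CPM and at 14.1, 16.0 and 15.3 CPM, without overlap, and did not pass the test (log2 0.25 ± 0.14, adjusted p = 0.349). Acat2, the cytosolic thiolase that joins acetyl units, was also higher without overlap, at 41.4 to 50.3 CPM against 34.7 to 39.9 CPM (log2 0.27 ± 0.13, adjusted p = 0.274). Acat2 has a close copy, Acat3, with 136 to 310 counts in the FAD5x libraries, against 78 to 114 in the Control libraries, so its count is uncertain.

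Hmgcs1, the synthase that makes HMG-CoA, was the member with the highest level per length in Control, 60.0 CPM per kilobase. It stood at 279, 268 and 236 CPM in the FAD5x libraries, against 233, 279 and 315 CPM in the Control libraries, with overlap (log2 -0.08 ± 0.15, edgeR adjusted p = 0.811). Idi1, the isomerase that makes the isoprenoid building block, overlapped too, at 45.3 to 51.4 CPM against 46.7 to 60.7 CPM (log2 -0.19 ± 0.13, adjusted p = 0.473). Its copy Gm13502 had 82 to 142 counts in the 6 libraries. Fdps, farnesyl diphosphate synthase, had 17 to 42 counts in each library, or 0.357 CPM per kilobase in Control, and a log2 fold change of 0.06 ± 0.43 (adjusted p = 0.958). Fdps shares 1124 exon bases with the same-strand gene Gm43738. The copy search found 6 near-identical genes for Fdps, Gm43738 among them. Those in the count table held at most 4 counts each, and the level of Fdps here is uncertain. In the mevalonate group 1 of 7 genes was called and the median log2 fold change was 0.25, with 5 above 0.

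From squalene to cholesterol 0 of 11 genes were called by edgeR (2 were higher and 0 lower before adjustment at p under 0.05, limma-voom called 0 and DESeq2 called 1), with a median log2 fold change of -0.02. Fdft1, squalene synthase, the first enzyme committed to sterols, was nearest to the threshold. It was at 88.8, 108 and 87.8 CPM in the FAD5x libraries, against 46.8, 59.9 and 67.1 CPM in the Control libraries, without overlap. The difference was 1.64-fold (log2 0.71 ± 0.16, edgeR adjusted p = 0.0554), and DESeq2 called it (0.00526), as did edgeR with library totals only (0.0430) and with no filter on low counts (0.00671).

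Fdft1 shares 774 exon bases, 18.3%, with Ctsb, a lysosomal protease gene on the opposite strand. Ctsb was at 621, 595 and 491 CPM in the FAD5x libraries, against 397, 392 and 422 CPM in the Control libraries, without overlap (log2 0.50 ± 0.15, edgeR adjusted p = 0.112). Its part in the Fdft1 counts was not tested. A processed copy of Fdft1, Gm6781, had at most 3 counts in any library.

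Nsdhl, an X-linked sterol dehydrogenase that acts in demethylation, was at 23.2, 18.3 and 25.8 CPM in the FAD5x libraries, against 15.4, 16.3 and 17.7 CPM in the Control libraries. The groups did not overlap, FAD5x replicate 2 being close to Control replicate 3, and the difference did not pass the test (log2 0.45 ± 0.16, unadjusted p = 0.0231, edgeR adjusted p = 0.165). Ebp, the X-linked sterol isomerase, was at 11.0 to 14.2 CPM in the FAD5x libraries, against 9.19 to 12.2 CPM in the Control libraries (log2 0.32 ± 0.19, adjusted p = 0.376). Since Control replicate 1 differs in sex, these X-linked genes were also compared without it, at log2 values of 0.40 for Nsdhl and 0.24 for Ebp.

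Cyp51, the lanosterol demethylase, was the member whose groups did not overlap in the other direction, at 64.3, 57.2 and 65.2 CPM in the FAD5x libraries, against 66.6, 70.3 and 74.3 CPM in the Control libraries. The difference was small and did not pass the test (log2 -0.18 ± 0.12, edgeR adjusted p = 0.424). Sqle, the squalene epoxidase, a rate-controlling step, was at 74.1, 51.8 and 65.9 CPM in the FAD5x libraries, against 56.1, 68.9 and 71.6 CPM in the Control libraries (log2 -0.03 ± 0.16, adjusted p = 0.931). Msmo1, the sterol methyl oxidase, was at 73.6 to 88.9 CPM and 60.3 to 84.2 CPM (log2 0.12 ± 0.16, adjusted p = 0.703).

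FAD5x replicate 2 was the lowest of the 6 libraries for several late enzymes. Lss, lanosterol synthase, was at 31.3 CPM there, against 54.0 and 50.6 CPM in FAD5x replicates 1 and 3 and 44.3 to 48.3 CPM in Control (log2 -0.02 ± 0.20, edgeR adjusted p = 0.970). Dhcr7, the reductase of the last step, was at 23.8 CPM there, against 39.3 and 34.3 CPM in FAD5x replicates 1 and 3 and 34.8 to 37.7 CPM in Control (log2 -0.16 ± 0.18, adjusted p = 0.665). The same library was lowest for Sqle and Cyp51. Sc5d, the sterol desaturase, was instead lowest in FAD5x replicate 3, at 31.7 CPM, against 42.1 to 50.5 CPM in the other libraries (log2 -0.15 ± 0.18, adjusted p = 0.667).

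Tm7sf2, a sterol reductase, and Hsd17b7, a sterol ketoreductase, had overlapping groups. Tm7sf2 was at 15.0 to 17.7 CPM in the FAD5x libraries, against 11.6 to 20.0 CPM in the Control libraries (log2 0.08 ± 0.21, edgeR adjusted p = 0.878), and it shares 532 exon bases with Vps51 on the same strand. Hsd17b7 was at 22.4 to 24.4 CPM and 21.9 to 31.4 CPM (log2 -0.14 ± 0.16, adjusted p = 0.656).

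**Figure D3:**
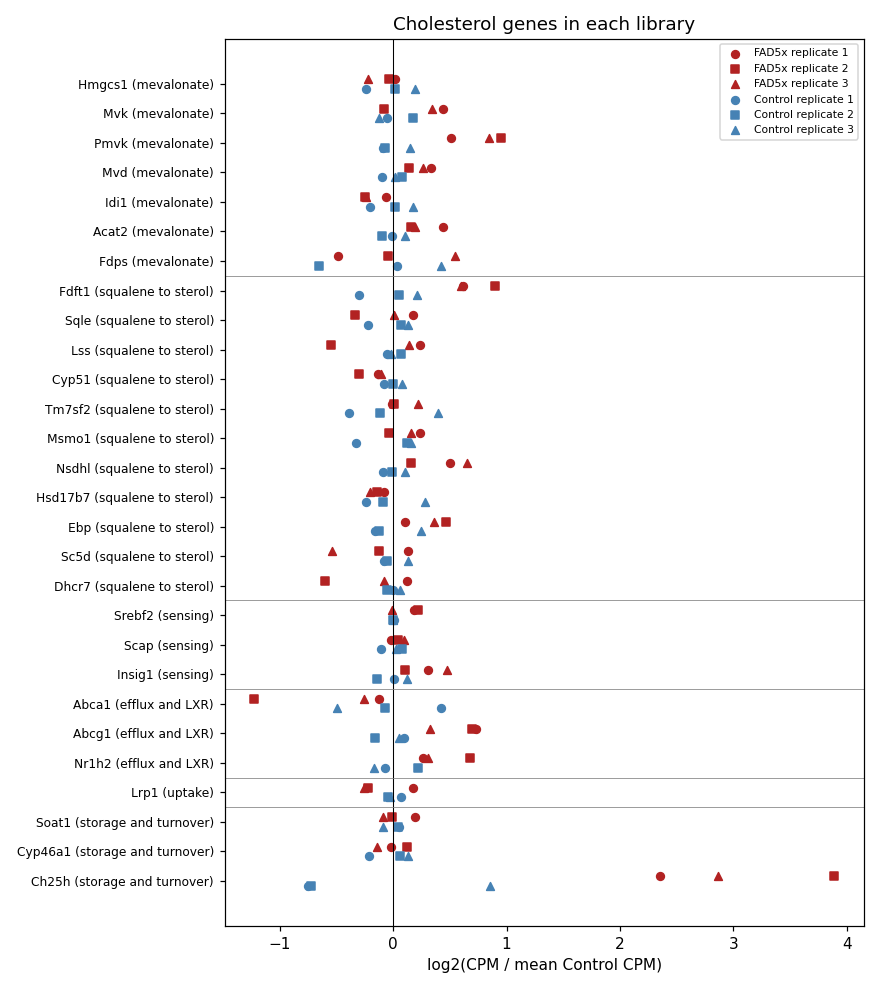
Each row is 1 gene and each point 1 library, placed at log2 of its CPM over the Control mean; red marks FAD5x, blue Control, and circle, square and triangle replicates 1, 2 and 3. Ch25h has the widest spread, and FAD5x replicate 2 is the red point farthest to the left for Lss, Dhcr7, Cyp51, Sqle and Abca1.

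The regulators of synthesis had differences that did not pass the test. Srebf2, which encodes SREBP2, was at 280, 287 and 244 CPM in the FAD5x libraries, against 247, 247 and 246 CPM in the Control libraries (log2 0.13 ± 0.13, edgeR adjusted p = 0.603). Scap was at 75.6 to 81.6 CPM in the FAD5x libraries, against 71.1 to 80.7 CPM in the Control libraries (log2 0.04 ± 0.11, adjusted p = 0.888). Insig1, a target of SREBP2 that feeds back on it, was at 77.5, 67.2 and 87.0 CPM in the FAD5x libraries, against 63.0, 56.8 and 68.2 CPM in the Control libraries, with FAD5x replicate 2 just inside the Control range (log2 0.30 ± 0.14, adjusted p = 0.254). None of these 3 genes passed the test in edgeR, 0 had an unadjusted p under 0.05, and limma-voom and DESeq2 each called 0.

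The efflux transporters did not share a direction, and neither was called. Abcg1, a transporter that hands cholesterol to lipoprotein particles and an LXR target, was at 74.2, 72.2 and 55.9 CPM in the FAD5x libraries, against 47.7, 40.0 and 46.3 CPM in the Control libraries. The groups did not overlap, and the difference of 1.51-fold missed the threshold (log2 0.59 ± 0.15, edgeR adjusted p = 0.0672). It was called by DESeq2 (0.0172), with no filter on low counts (0.0233), without FAD5x replicate 3 (0.0322) and after removal of length and GC trends (0.0462). Abca1, the transporter that loads lipid on apolipoproteins and another LXR target, had the opposite sign and a wide spread. It was at 69.0, 32.0 and 62.6 CPM in the FAD5x libraries, against 101, 71.4 and 53.3 CPM in the Control libraries, with overlap (log2 -0.46 ± 0.32, adjusted p = 0.466). Whether the differences of Abcg1 and Abca1 differ from each other was not tested.

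Nr1h2, which encodes LXR beta, was at 46.1, 61.4 and 47.3 CPM in the FAD5x libraries, against 36.4, 44.5 and 34.0 CPM in the Control libraries. FAD5x replicate 1 lay just above Control replicate 2, and the difference did not pass the test (log2 0.43 ± 0.16, unadjusted p = 0.0267, edgeR adjusted p = 0.178). Lrp1, a large endocytic receptor for lipoproteins on neurons and glia, was the member with the most counts, at 613, 467 and 456 CPM in the FAD5x libraries, against 570, 528 and 534 CPM in the Control libraries. The groups overlapped, with FAD5x replicate 1 above and the other FAD5x libraries below every Control library (log2 -0.09 ± 0.16, adjusted p = 0.800).

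The median over the 18 synthesis enzymes, as the difference in log2(CPM + 0.1) from the Control mean, was 0.16, -0.03 and 0.18 in the FAD5x libraries, against -0.10, -0.01 and 0.15 in the Control libraries. The ranges overlapped, with Control replicate 3 just below FAD5x replicates 1 and 3. The sterol sensing median was 0.18, 0.10 and 0.09 in the FAD5x libraries, against 0.00, 0.00 and 0.03 in the Control libraries, without overlap, although each of its 3 genes taken singly overlapped. The list of 16 other sterol sensing genes overlapped, at 0.12, 0.03 and -0.01 and 0.03, -0.07 and 0.07, while the median of all tested genes did not, at 0.016, 0.0050 and 0.0085 and 0.00084, -0.0028 and -0.00085. The efflux and LXR median was 0.27, 0.69 and 0.31 in the FAD5x libraries, against 0.10, -0.02 and -0.16 in the Control libraries, without overlap over 3 genes of which Abca1 overlapped singly. The oligodendrocyte marker median was 0.92, 0.13 and 0.34 in the FAD5x libraries, against -0.30, -0.03 and 0.33 in the Control libraries. FAD5x replicate 2 was the lowest FAD5x library, and Control replicate 1 the lowest Control library, for both the synthesis enzymes and the oligodendrocyte markers. The part of oligodendrocytes in these values was not tested.

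**Figure D4:**
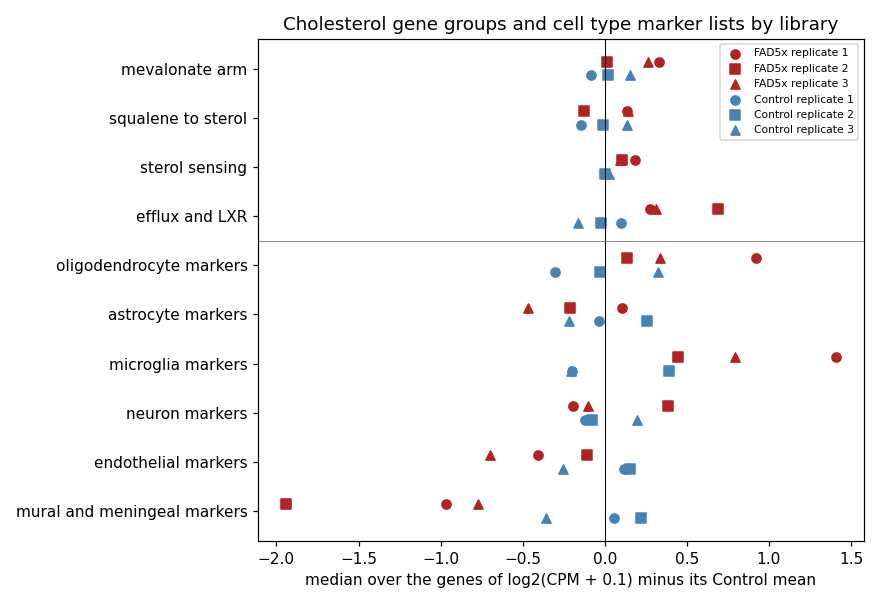
Points show, for each library, the median over a gene group of log2(CPM + 0.1) minus its Control mean; cholesterol groups are above the grey line and cell type marker lists below it, with red for FAD5x and blue for Control. Among the cholesterol groups of several genes the efflux and LXR median reaches 0.69, in FAD5x replicate 2, and the mevalonate median 0.33, while microglia and mural and meningeal markers spread further.

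Further genes of the pathway were read from 5 lists of 76 genes outside the members, 70 of which were tested. By edgeR 0 of them were called, with 12 higher and 7 lower at an unadjusted p under 0.05, against 11.2% and 10.1% of all tested genes. By limma-voom 0 were called, and by DESeq2 10, 6 higher and 4 lower. DESeq2 called 1485 of all 17074 tested genes. The median log2 fold change of the 70 genes was 0.08, with 44 above 0. Acly, the enzyme that makes cytosolic acetyl-CoA, had 134 to 184 CPM in the FAD5x libraries, against 147 to 176 CPM in the Control libraries (log2 0.00 ± 0.15, adjusted p = 0.991). Among sterol sensing and SREBP target genes Scd2, a fatty acid desaturase, had a log2 fold change of 0.26 ± 0.20 and Fasn, fatty acid synthase, one of -0.34 ± 0.16 (adjusted p = 0.503 and 0.269). Fasn was at 297 to 399 CPM in the FAD5x libraries, against 402 to 458 CPM in the Control libraries, without overlap.

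The most abundant genes of the efflux list encode apolipoproteins that glia secrete. Apoe was at 2580, 1356 and 2395 CPM in the FAD5x libraries, against 1635, 1468 and 998 CPM in the Control libraries (log2 0.63 ± 0.28, edgeR adjusted p = 0.252). Clu, clusterin, was at 1120, 771 and 717 CPM in the FAD5x libraries, against 438, 737 and 533 CPM in the Control libraries (log2 0.61 ± 0.25, adjusted p = 0.204). FAD5x replicate 2 lay within the Control range for Apoe, and FAD5x replicate 3 for Clu. In the list of lipoprotein uptake and sterol transport, Sorl1, a sorting receptor, had a log2 fold change of -0.27 ± 0.21 and Lamp1, a lysosomal membrane protein, one of 0.15 ± 0.15 (adjusted p = 0.505 and 0.625). Among ester and oxysterol genes Nceh1, a cholesteryl ester hydrolase, had one of 0.05 ± 0.23 and Ephx1, an epoxide hydrolase, one of 0.47 ± 0.25 (adjusted p = 0.926 and 0.322).

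The calls in this gene set differed between settings. The number of members called higher was 2 without each FAD5x library in turn and 0 without each Control library in turn; without FAD5x replicate 3 the called pair was Ch25h and Abcg1. Over all genes 537 were called with 6 libraries, and 98, 81 and 152 without Control replicates 1, 2 and 3. Ch25h was called in 10 of 15 settings, Pmvk in 7, Abcg1 in 4 and Fdft1 in 3, and no other member in any.

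**Figure D5:**
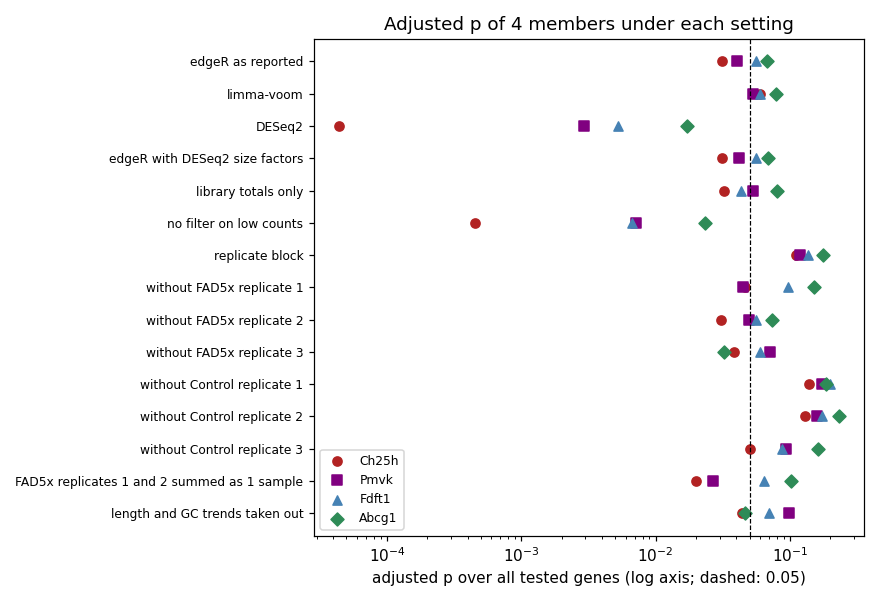
Points show the adjusted p of Ch25h, Pmvk, Fdft1 and Abcg1 (log axis) for edgeR as reported and 14 alternative settings, with the threshold of 0.05 as a dashed line. All 4 genes lie left of the line by DESeq2 and with no filter on low counts, and all 4 lie right of it when any Control library is left out.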

How the data were processed

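RNA of mouse cortex was sequenced from 3 FAD5x and 3 Control libraries. The authors deposited raw counts per gene for each library. Build GRCm39, trimming with cutadapt, the aligner STAR 2.7.11b and counting with featureCounts are named in the submitters' processing notes, as are edgeR and limma; library preparation, strandedness and the treatment of reads that map to several places are not given in the sources used here. 1 line with a cell that was not a number was left out.

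The test was that of edgeR 4.0.16 (R 4.3.3) (filterByExpr, TMM scaling, robust quasi-likelihood F-test, two-sided), with Benjamini-Hochberg adjustment over 17074 genes. The SE is the log2 fold change divided by the root of F. On simulated data for this comparison, on 17074 genes, 82% of genes changed 2-fold and 98% of those changed 4-fold were called. The changed genes were drawn only from those above the median level, so these shares do not describe genes of low level. In a separate simulation with no changed gene 0 genes were called. Alternatives were limma-voom (limma 3.58.1), DESeq2 1.42.0, other scaling, no filter, a replicate block, each library left out, FAD5x replicates 1 and 2 summed, and length and GC trends taken out.

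Symbols and exon lengths came from GENCODE M21 by identifier (47223 matched, 505 not), an annotation of an earlier build, and copies were sought with BLAST 2.17.0. Every member is described, with values in each library for called members and those with an unadjusted p below 0.05. The other members are given by values in each library or by ranges. Of each list of other pathway genes the 2 with the highest mean CPM are named, and a gene this rule takes is not reported here. The members and lists were chosen with earlier results of these data known.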

Additional observations from a re-analysis of the deposited data

How the results depend on the processing

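Over all genes 537 were called, against 1485 by DESeq2, 1063 with no filter on low counts, 72 with the replicate block and 81 to 989 when single libraries were left out. Members called higher were 2, against 0 by limma-voom, 4 by DESeq2, 4 with no filter, 0 with the replicate block and 0 to 2 when single libraries were left out. Members called lower were 0 in every setting run. Other pathway genes called were 0, against 10 by DESeq2, 6 with no filter, 1 with FAD5x replicates 1 and 2 summed, 2 with length and GC trends taken out and 0 to 5 when single libraries were left out (5 without FAD5x replicate 2 and 3 without FAD5x replicate 3). The causes were not tested. Same-numbered libraries had correlations of deviations of -0.04, -0.09 and -0.31. With 3 libraries per group these values cannot settle whether replicate numbers pair the libraries. With the replicate block Ch25h and Pmvk were not called (edgeR, adjusted p = 0.112 and 0.120).

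Log2 fold changes near 0 changed sign. With length and GC trends taken out Sqle was at 0.0063, Lss at 0.14 and Lrp1 at 0.12. With FAD5x replicates 1 and 2 summed Lss was at 0.026, Soat1 at -0.00254, Acly at -0.058 and Nceh1 at -0.059. Acly was at -0.00602 by limma-voom, -0.00142 by DESeq2, -0.0015 with DESeq2 size factors, -0.019 with library totals and -0.00316 with the replicate block. When single libraries were left out the ranges were -0.19 to 0.029 for Hmgcs1, -0.25 to 0.33 for Fdps, -0.15 to 0.10 for Sqle, -0.17 to 0.20 for Lss, -0.086 to 0.33 for Tm7sf2 and -0.016 to 0.21 for Msmo1. They were -0.25 to 0.025 for Hsd17b7, -0.32 to 0.011 for Sc5d, -0.32 to 0.029 for Dhcr7, -0.012 to 0.075 for Scap, -0.055 to 0.094 for Soat1, -0.10 to 0.065 for Cyp46a1, -0.11 to 0.12 for Acly and -0.19 to 0.24 for Nceh1. The 6 members with an unadjusted p below 0.05 kept their direction in all 14 alternatives. They were picked by p from these same libraries and their groups did not overlap. A change of sign was therefore hardly possible, and the kept direction is no further support. Ch25h rests on 4 to 12 counts in each Control library, which limits its fold.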

Other observations

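Gm37784, a gene of 189 bases that matches a stretch of Insig1 at 98.94% identity, had 9, 15 and 19 counts in FAD5x replicates 1, 2 and 3 and 0 counts in each Control library. It was below the filter on low counts and was not tested, and it was singled out after its counts were seen.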
